A study of Mus musculus with 135 samples.

Results

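The 9 interferon-stimulated genes Ifit1, Ifit3, Ifi27, Isg15, Irf7, Oasl2, Bst2, Usp18 and Rsad2 were followed across the cerebral cortex and hippocampus of male Townes mice. They were taken by symbol, and each of the 9 had a row among the 55416 genes of both count tables. In Townes mice the mouse globin genes are exchanged for human ones. SS mice, homozygous for the sickle allele, model sickle cell disease, and AA mice carry the human normal adult globin genes and served as controls, so every group shares the globin exchange. Stress was repeated social defeat (RSD), in which an aggressive male was put into the home cage of 3 mice for 2 hours a day over 6 days, at an age of 6 months. Minocycline, a tetracycline antibiotic used to restrain microglial activation, was given in the drinking water at 90 mg/kg. In each tissue a pair of libraries with identical counts was removed. The remaining cortex libraries came from 12 AA mice, 3 with RSD (AA + RSD), 1 with minocycline (AA + minocycline) and 18 with both (AA + RSD + minocycline), and from 8 SS mice, 6 with RSD, 4 with minocycline and 14 with both. For the hippocampus there were 11 AA and 7 SS controls, and the other groups had the numbers they had in the cortex. The unit of replication was the mouse, and p-values between groups of mice measure the spread between mice. The main test between tissues did not pair the cortex and hippocampus libraries of a mouse.

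Interferons are secreted alarm proteins. Type I interferons bind the receptor Ifnar1/Ifnar2, and the kinases Jak1 and Tyk2 then activate a transcription factor complex that holds Stat2 and Irf9 and binds a DNA motif, the interferon-stimulated response element, in the promoters of many genes. In the brain, microglia, astrocytes and endothelial cells respond, and a low tonic signal keeps many of these genes measurable without infection. Each of the 9 genes has a known role. Irf7 is the transcription factor that amplifies type I interferon production. Isg15 is a ubiquitin-like protein attached to other proteins, and Usp18 removes it and also blocks the receptor. Rsad2 (viperin) is a radical SAM enzyme that makes a chain-terminating nucleotide. Ifit1 and Ifit3 bind foreign RNA, Oasl2 belongs to the oligoadenylate synthetase family, Bst2 (tetherin) holds virus particles at the cell surface, and Ifi27 is a small membrane protein of mitochondria and the nuclear envelope.

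The 250 bases before the annotated start are shown for 4 members whose promoters hold the core letters of the response element, because Rsad2 and Isg15 were called between the genotypes while Ifit1 and Ifit3 were not. Sequences are from RefSeq on build GRCm38.p6, written in the direction of transcription. Capitals mark GAAANNGAAA or its complement TTTCNNTTTC, searched on both strands, overlapping matches included. The Isg15 window lies at chr4:156200819-156201068 on the minus strand, that of Rsad2 at chr12:26456453-26456702 on the minus strand, that of Ifit1 at chr19:34640639-34640888 and that of Ifit3 at chr19:34583279-34583528, both on the plus strand.
Isg15: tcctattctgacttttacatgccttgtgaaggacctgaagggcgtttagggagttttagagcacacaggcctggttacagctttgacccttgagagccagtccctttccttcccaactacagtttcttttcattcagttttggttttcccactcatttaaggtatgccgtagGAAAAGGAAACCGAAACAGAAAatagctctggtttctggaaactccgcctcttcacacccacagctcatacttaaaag
Rsad2: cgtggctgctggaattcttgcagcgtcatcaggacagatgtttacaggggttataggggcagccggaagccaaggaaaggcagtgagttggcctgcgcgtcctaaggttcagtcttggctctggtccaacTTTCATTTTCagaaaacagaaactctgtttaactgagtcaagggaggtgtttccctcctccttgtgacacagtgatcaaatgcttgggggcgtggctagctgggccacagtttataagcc
Ifit1: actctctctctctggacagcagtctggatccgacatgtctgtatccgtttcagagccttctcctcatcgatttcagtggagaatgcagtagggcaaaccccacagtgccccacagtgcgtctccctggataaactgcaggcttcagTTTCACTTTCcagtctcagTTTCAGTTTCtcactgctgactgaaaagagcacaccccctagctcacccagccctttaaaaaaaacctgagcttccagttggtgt
Ifit3: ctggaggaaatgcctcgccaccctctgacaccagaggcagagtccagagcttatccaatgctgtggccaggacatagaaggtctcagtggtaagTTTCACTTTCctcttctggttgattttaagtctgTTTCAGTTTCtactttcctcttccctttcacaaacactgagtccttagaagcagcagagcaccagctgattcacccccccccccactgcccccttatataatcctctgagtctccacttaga
Isg15 had 3 overlapping matches between 68 and 56 bases before the start, and Rsad2 had 1 match, 110 bases before it. Ifit1 had 2 matches, at 94 and 75 bases, and Ifit3 had 2, at 146 and 112 bases. Of the 9 members, 7 have a promoter in the RefSeq table and 5 of these hold a match, the fifth being Bst2 with 2 overlapping matches, whereas 978 of 32851 promoters of the same length (2.98%) do. No match was found for Irf7 and Oasl2 in this window, and Ifi27 and Usp18 had no entry. A match of letters is a description and does not show binding.

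In GRCm39, the build of the counts, Isg15 lies at chr4:156283883-156285303 and Rsad2 at chr12:26492745-26506451, both on the minus strand. Of the exonic bases of Isg15, 31.1% overlap Gm46878 on the other strand, a gene with no row in the tables. The overlap was 4.62% for Usp18, 4.48% for Ifi27, 1.67% for Irf7 and 0 for the other 5 members. Ifit3 has a near-identical neighbour, Ifit3b, so its counts are uncertain. Levels are given in CPM, the reads of a gene scaled to a common total of reads on genes in every library. Per kilobase of exon, the order of the members differed between genotypes. In AA libraries Ifi27 had the highest median (5.02 CPM per kilobase in the cortex and 8.09 in the hippocampus), followed by Ifit3 (2.25 and 1.72) and Bst2 (1.41 and 1.94), whose order changed between the tissues, and by Isg15 (1.11 in both). Irf7 (0.421 and 0.391), Oasl2 (0.388 and 0.467), Rsad2 (0.343 and 0.325), Ifit1 (0.263 and 0.226) and Usp18 (0.221 and 0.222) were the lowest in AA. In SS libraries the median of Isg15 was above that of Ifi27 in the cortex (6.5 and 5.38) and below it in the hippocampus (4.58 and 7.54), and Rsad2 was the third (2.89 and 2.47). Ifit3 (2.32 and 1.72) and Bst2 (1.84 and 2.12) followed in SS, and Irf7, Oasl2, Usp18 and Ifit1 were again the lowest, at 0.298 to 0.56 in the cortex.

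Some libraries stood apart or went against their labels. Cortex libraries held 16295042 to 107713193 reads on genes, and hippocampus libraries held 12869149 to 68731008. Both libraries of mouse 9674 (AA + RSD) looked exchanged. Its cortex library had the lowest summed level of 6 cortex markers (168 CPM, against medians of 644 in AA and 652 in SS) and the highest of 6 hippocampus markers (613, against 152 and 159), and its hippocampus library had the reverse (672 and 168). Of the mice labelled AA, 5844 (AA) and 5853 (AA + RSD + minocycline) had summed levels of 3 erythroid markers, Alas2, Slc4a1 and Hba-x, of 110 and 59.1 CPM in the cortex, against a median of 5.4 in AA. Mouse 7078, labelled SS + RSD + minocycline, had 7.33, against a median of 116 in SS. Mouse 9631, labelled AA, was doubted for its globin reads. The tests of the members between groups were also computed without these mice, with mouse 9674 left out separately from the others. Tests of single genes that are not members are given with all mice only. Correlations with the erythroid sum and among the members were not computed without mouse 9674. The doubted mice were chosen from globin, erythroid and tissue genes and not from a member. Rsad2 and Isg15 go with the erythroid sum, however, so the separation of genotypes without these mice is not independent of that choice. The numbers of the mice fall into runs, and these number series are named A, B and C. All mice given RSD alone are of series A, all given RSD with minocycline are of series B or C, and controls are of A and B.

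Rsad2 and Isg15 were higher in SS than in AA control mice in both tissues, and none of the other 7 members passed the test. In the cortex, Rsad2 had 2.04 ± 2.51 CPM in AA (SD, n = 12) and 10.6 ± 3.06 in SS (n = 8), a log2 fold change of 2.33 ± 0.33 (SE; by the quasi-likelihood test of edgeR, adjusted p = 1.08e-05). In the hippocampus it had 1.67 ± 1.26 CPM (n = 11) and 12.2 ± 3.28 (n = 7), a log2 fold change of 2.84 ± 0.31 (adjusted p = 1.22e-08). Isg15 was higher by 2.0 ± 0.42 on the log2 scale in the cortex (1.25 ± 1.19 and 5.16 ± 1.74 CPM, adjusted p = 0.0101) and by 2.13 ± 0.42 in the hippocampus (0.999 ± 0.693 and 4.47 ± 2.40 CPM, adjusted p = 0.00487). These 2 of 9 members compare with 0.214% of 22926 genes called (cortex) and 0.159% of 23215 (hippocampus). In bulk RNA, more cells of a type and more RNA per cell cannot be told apart.

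Among single mice, the lowest, median and highest Rsad2 levels in the cortex of controls were 0.881, 1.19 and 9.91 CPM in AA and 6.28, 10.9 and 14.8 in SS. Only mouse 5844 reached into the SS range, and the next AA value was 2.36, so 5 of 8 SS mice were above every AA mouse. In the hippocampus the values were 0.931, 1.35 and 5.40 CPM in AA and 5.46, 13.5 and 14.8 in SS, and 7 of 7 SS mice were above every AA mouse. For Isg15 the lowest, median and highest were 0.517, 0.821 and 4.65 CPM in AA and 1.86, 5.17 and 7.77 in SS in the cortex, and 6 of 8 SS mice were above every AA mouse. In the hippocampus they were 0.445, 0.843 and 2.96 CPM in AA and 1.63, 3.76 and 8.87 in SS, with 5 of 7 SS mice above. Mouse 5785 was the lowest SS control for both genes in both tissues, and its erythroid sum of 61.5 CPM was the lowest of the SS controls in the cortex.

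**Figure D1:**
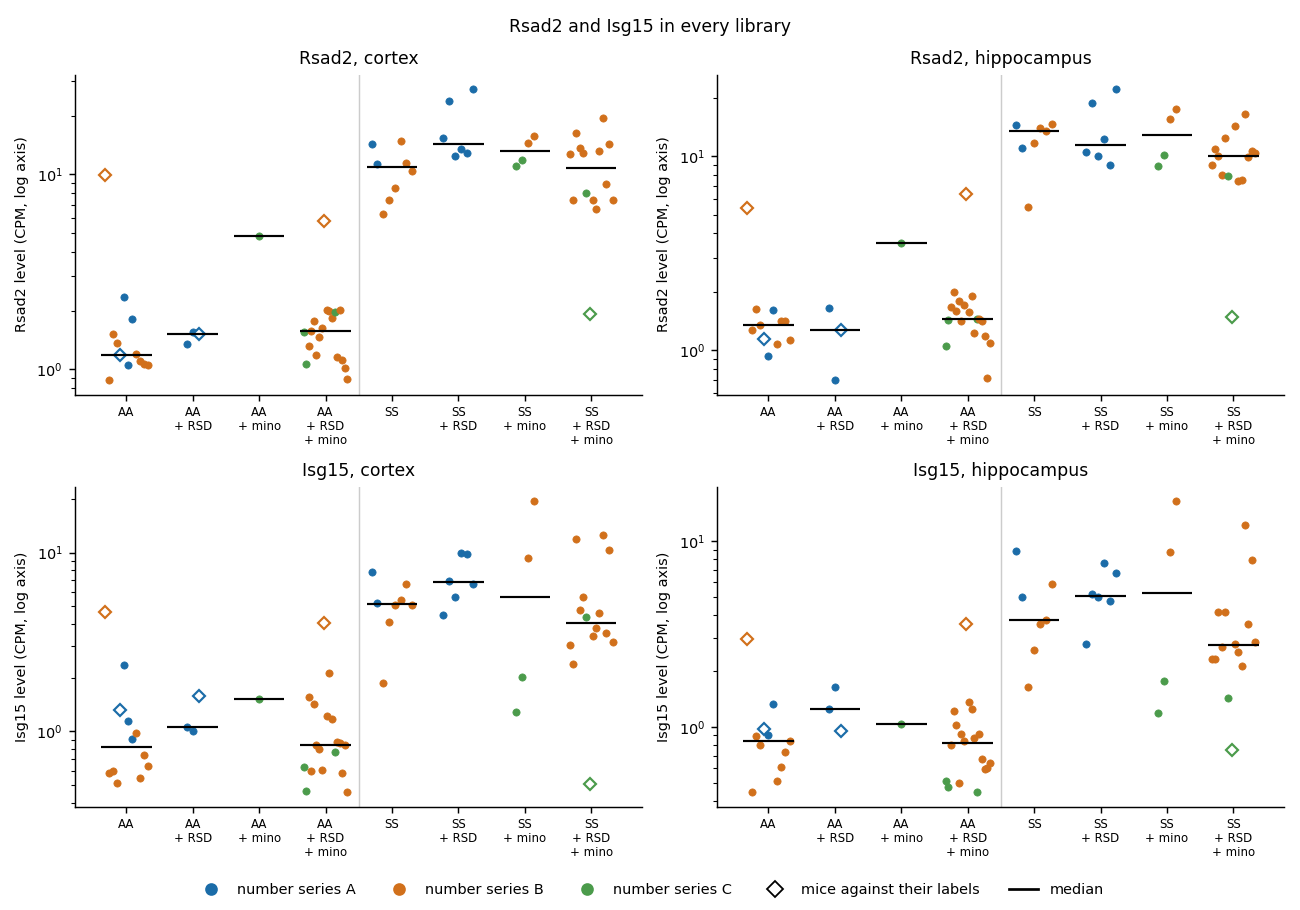
Rsad2 and Isg15 in each library, in CPM on a log axis, by group and tissue. Points are mice coloured by number series, open diamonds are mice that went against their labels, and black lines are group medians. SS groups sit above AA groups in both tissues, with Rsad2 medians in SS groups of the cortex between 10.8 and 14.4 CPM.

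The genotype difference was also present after RSD and after RSD with minocycline. After RSD, Rsad2 in the cortex was 1.34, 1.51 and 1.55 CPM in the 3 AA mice, and it was 12.4, 12.9, 13.5, 15.3, 23.8 and 27.4 CPM in the 6 SS mice, a log2 fold change of 3.57 ± 0.62 (adjusted p = 0.00042). In the hippocampus it was 0.699, 1.27 and 1.65 CPM in AA and 9.08 to 22.3 in SS (median 11.4), a log2 fold change of 3.50 ± 0.55 (adjusted p = 0.000298). Mouse 9674, whose libraries looked exchanged between the tissues, is among the 3 AA mice. The groups did not overlap in either tissue. Isg15 did not overlap either, with 1.00, 1.06 and 1.58 CPM in AA and 4.48 to 9.95 in SS (median 6.84) in the cortex, but its difference of 2.58 ± 0.75 on the log2 scale (95% interval 1.08 to 4.08) missed the threshold (adjusted p = 0.143). The Isg15 difference in the hippocampus was 2.12 ± 0.71 (interval 0.71 to 3.53, adjusted p = 0.164). The 1 member called compares with 0.493% of all genes (cortex) and 0.78% (hippocampus). The share of all genes whose groups do not overlap is not given, here or beside the other counts of mice above or below a group.

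With RSD and minocycline, Rsad2 in the cortex ranged from 0.887 to 5.74 CPM in 18 AA mice (median 1.57) and from 1.91 to 19.5 in 14 SS mice (median 10.8). The log2 fold change was 2.60 ± 0.26 (adjusted p = 5.65e-10), and 13 of 14 SS mice were above every AA mouse. The SS mouse that was not is 7078, and the highest AA mouse is 5853. In the hippocampus Rsad2 ranged from 0.717 to 6.42 CPM in AA (median 1.44) and from 1.48 to 16.6 in SS (median 10), a log2 fold change of 2.52 ± 0.23 (adjusted p = 3.23e-11). Isg15 was higher by 2.23 ± 0.34 (adjusted p = 1.24e-05) and 2.0 ± 0.32 (adjusted p = 5.48e-05) on the log2 scale, with 7 and 5 of 14 SS mice above every AA mouse. Oasl2 was higher in the cortex by 0.84 ± 0.18 (adjusted p = 0.0089), from 2.66 ± 0.724 CPM in AA to 4.86 ± 3.69 in SS. Mouse 5801, at 17 CPM, was part of that difference, which was 0.52 without it (adjusted p = 0.106). Oasl2 in the hippocampus differed by 0.20 ± 0.13 (adjusted p = 0.903). The 3 and 2 members called compare with 0.624% and 2.74% of all genes.

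Without mice 5844, 5853, 9631 and 7078, Rsad2 ranged from 0.881 to 4.82 CPM in 31 AA cortex libraries and from 6.28 to 27.4 in 31 SS ones, so all 31 SS libraries were above every AA library. In the hippocampus all 30 SS libraries (5.46 to 22.3 CPM) were above all 30 AA libraries (0.699 to 3.56). Isg15 ranged from 0.458 to 2.36 and from 1.29 to 19.4 CPM in the cortex, with 28 of 31 SS libraries above every AA library, and 27 of 30 were above in the hippocampus. The mice left out were chosen from globin and erythroid genes, and both members go with the erythroid sum. These counts are therefore not independent of that choice. The Rsad2 fold changes without these mice were 2.91 (controls), 3.57 (after RSD) and 2.87 (RSD and minocycline) on the log2 scale in the cortex, and hippocampal values were 3.20, 3.50 and 2.83. Isg15 after RSD in the cortex was then called (2.56 ± 0.62, adjusted p = 0.0304). None of the mice left out is in the groups of that comparison, so the mice compared were the same and only the shared model changed. Isg15 after RSD was called under 4 of 17 alternatives in the cortex and 1 of 17 in the hippocampus. Within series A the control difference of Rsad2 in the cortex was 2.98 ± 0.33 (adjusted p = 0.0012), and within series B it was 2.04 ± 0.41 (adjusted p = 0.0229). The corresponding values of Isg15 were 2.14 ± 0.36 (adjusted p = 0.047) and 1.94 ± 0.48 (adjusted p = 0.0319) in the cortex. In the hippocampus, Isg15 in series B alone missed the threshold (1.80 ± 0.45, adjusted p = 0.195). Without mouse 9674, Rsad2 after RSD in the cortex kept its size (3.60 ± 0.76) and missed the threshold with 2 AA mice left (adjusted p = 0.153). Hippocampal Rsad2 after RSD was called under each of 17 alternatives, leaving out mouse 9674 among them.

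**Figure D2:**
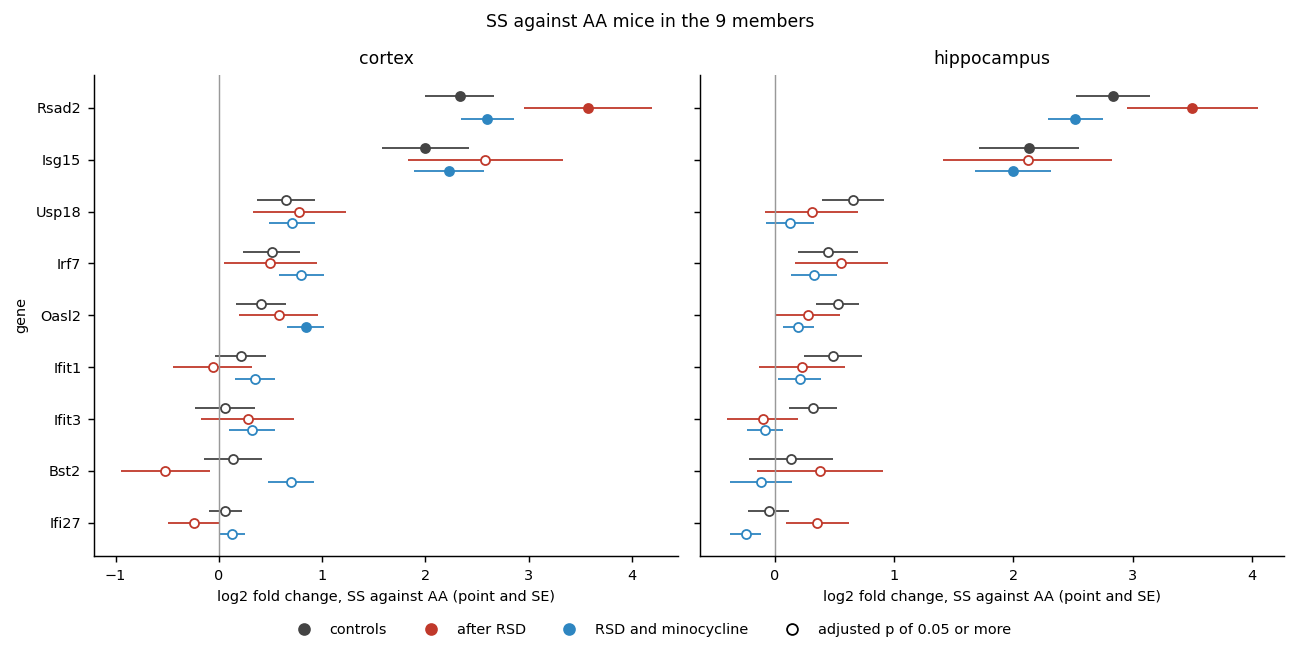
Log2 fold change of SS against AA mice for each of the 9 members in 3 comparisons and both tissues, with bars for the SE, filled where the adjusted p was under 0.05. Rsad2 and Isg15 lie between 2.0 and 3.57 in every comparison, and the other 7 members lie between -0.52 and 0.84.

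The erythroid markers moved with genotype and with both genes. The summed level of the 3 markers, none of them at 0, was 2.78 to 110 CPM in AA cortex (median 5.4) and 7.33 to 216 in SS cortex (median 116). In the hippocampus it was 1.84 to 64.3 in AA (median 4.44) and 3.92 to 227 in SS (median 94.5). All 3 were called higher in SS in each genotype comparison in both tissues. Across the 32 SS cortex libraries, the log2 level of Isg15 had a Pearson r of 0.861 (Spearman rho 0.897) with the log2 erythroid sum, and that of Rsad2 had 0.865 (0.791). Across the 34 AA cortex libraries r was 0.788 and 0.876, and without the doubted mice 0.652 and 0.686. Of the hippocampus libraries, the 31 of SS mice had an r of 0.791 for Isg15 and 0.916 for Rsad2. The 33 of AA mice had 0.72 and 0.737, and without the doubted mice 0.505 (rho 0.549) and 0.393 (rho 0.293), so the value of Rsad2 in the AA hippocampus rested in large part on those mice. The median r of all genes with the sum was -0.0185 in SS and -0.0146 in AA. The relation was not limited to Rsad2 and Isg15. In the SS cortex Bst2 had an r of 0.468 and a rho of 0.802, about that of Rsad2, followed by Usp18 (0.398, rho 0.644), Ifi27 (0.402, rho 0.611) and Ifit1 (0.333, rho 0.568), and Irf7 (0.227, rho 0.426), Ifit3 (0.153, rho 0.38) and Oasl2 (0.197, rho 0.324) had the lowest values. Without mouse 7078 the r of Bst2 was 0.663 and that of Ifi27 0.661. These libraries share groups, number series and dissection, so the values are descriptions. Of the doubted mice, 5844 and 7078 followed their erythroid sum, mouse 5844 having 9.91 CPM of Rsad2 and 4.65 of Isg15 in the cortex and mouse 7078 having 1.91 and 0.508. The AA controls of series A, which include mouse 9631, had at most 2.36 CPM of Rsad2 and 2.36 of Isg15 in the cortex. The single AA + minocycline mouse, with 24.7 CPM of erythroid markers, had 4.82 CPM of Rsad2 in the cortex and 3.56 in the hippocampus. Endothelial markers were also higher in SS, with median sums of 319 against 250 CPM in the cortex and 293 against 231 in the hippocampus, as were neutrophil markers (0.853 against 0.238 in the cortex and 0.554 against 0.12 in the hippocampus), B cell markers (1.41 against 0.58 and 1.01 against 0.477) and monocyte and macrophage markers (5.97 against 4.44 and 5.79 against 4.91), whereas microglial markers had medians of 241 and 234. These sums were not tested between genotypes, and the lowest, those of neutrophil and B cell markers, rest on few reads. The part of these cell types in the Rsad2 and Isg15 results was not tested.

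**Figure D3:**
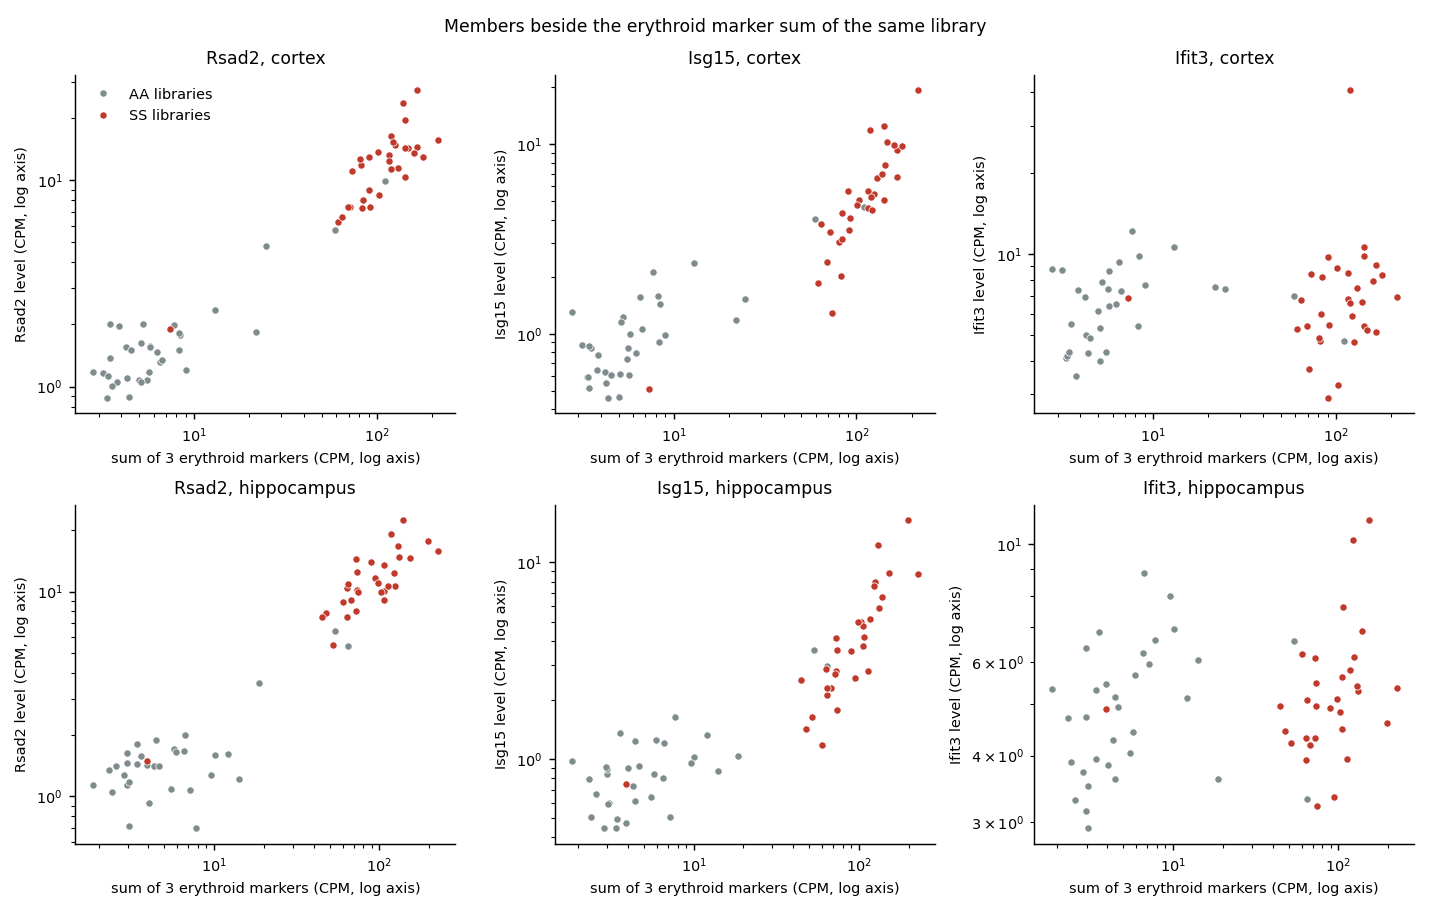
Rsad2 and Isg15 against the summed level of 3 erythroid markers, both in CPM on log axes, 1 point per library, by genotype and tissue. Both genes are higher where the erythroid sum is higher among SS libraries. Among AA libraries without mice 5844, 5853 and 9631 the relation is weaker, with an r of 0.686 for Rsad2 in the cortex and 0.393 in the hippocampus.

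Of the enzymes of the Isg15 system, Ube2l6 was higher in SS as well. Ube2l6, the enzyme that conjugates Isg15 to proteins, was higher in SS controls by 1.40 ± 0.23 in the cortex (6.50 ± 4.40 CPM in AA and 17.5 ± 3.12 in SS, adjusted p = 0.000203) and by 1.65 ± 0.25 in the hippocampus (adjusted p = 6.22e-05). It was called in all 3 genotype comparisons in both tissues, as was the exonuclease Isg20 (2.37 ± 0.42 and 2.38 ± 0.39 in controls). Their r with the erythroid sum in SS cortex libraries was 0.866 and 0.909. Usp18, which removes Isg15, had 0.675 ± 0.288 CPM in AA and 1.09 ± 0.258 in SS controls of the cortex, and 0.671 ± 0.170 and 1.09 ± 0.243 in those of the hippocampus, differences of 0.65 ± 0.28 and 0.66 ± 0.26 on the log2 scale that did not pass the test (adjusted p = 0.723 and 0.986). Its lowest library held 7 reads in the cortex and 5 in the hippocampus, so counting error adds to its spread.

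The other antiviral effectors and Irf7 were not called between genotypes in control mice. Irf7 in controls was 1.62 ± 0.530 CPM in AA and 2.37 ± 0.551 in SS in the cortex (log2 fold change 0.51 ± 0.28, adjusted p = 0.745). Hippocampal Irf7 was 1.43 ± 0.262 and 2.0 ± 0.519 CPM (0.45 ± 0.25, adjusted p = 1). Oasl2 had 2.25 ± 0.669 and 3.06 ± 0.747 CPM in AA and SS cortex, and 2.79 ± 0.311 and 4.12 ± 0.867 CPM in the hippocampus (0.53 ± 0.18, adjusted p = 0.554). Ifit1 had 1.83 ± 0.483 and 2.17 ± 0.618 CPM in the cortex, and Ifit3 had 5.60 ± 2.20 and 5.99 ± 1.99. Bst2 had 1.92 ± 0.690 and 2.16 ± 0.374 CPM, and Ifi27 had 22.5 ± 3.62 and 24 ± 2.79. The groups overlapped for each of these 6 genes in both tissues. In the hippocampus, 6 of 7 SS mice were above every AA mouse for Oasl2 (ratio of means 1.48) and 4 of 7 for Irf7 (1.4) and Ifit1 (1.42), beside 5 of 7 for Isg15 and for Usp18 (1.62), whereas it was 1 of 7 for Ifit3, Bst2 and Ifi27. In the cortex it was 2 of 8 for Oasl2, 1 of 8 for Irf7, Ifit1 and Usp18, and 0 of 8 for the others of these genes. The differences of all 9 members were positive in the cortex controls (median 0.41, against 0.00 over all genes), and 8 of 9 were positive in the hippocampus (median 0.49, against 0.01).

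**Figure D4:**
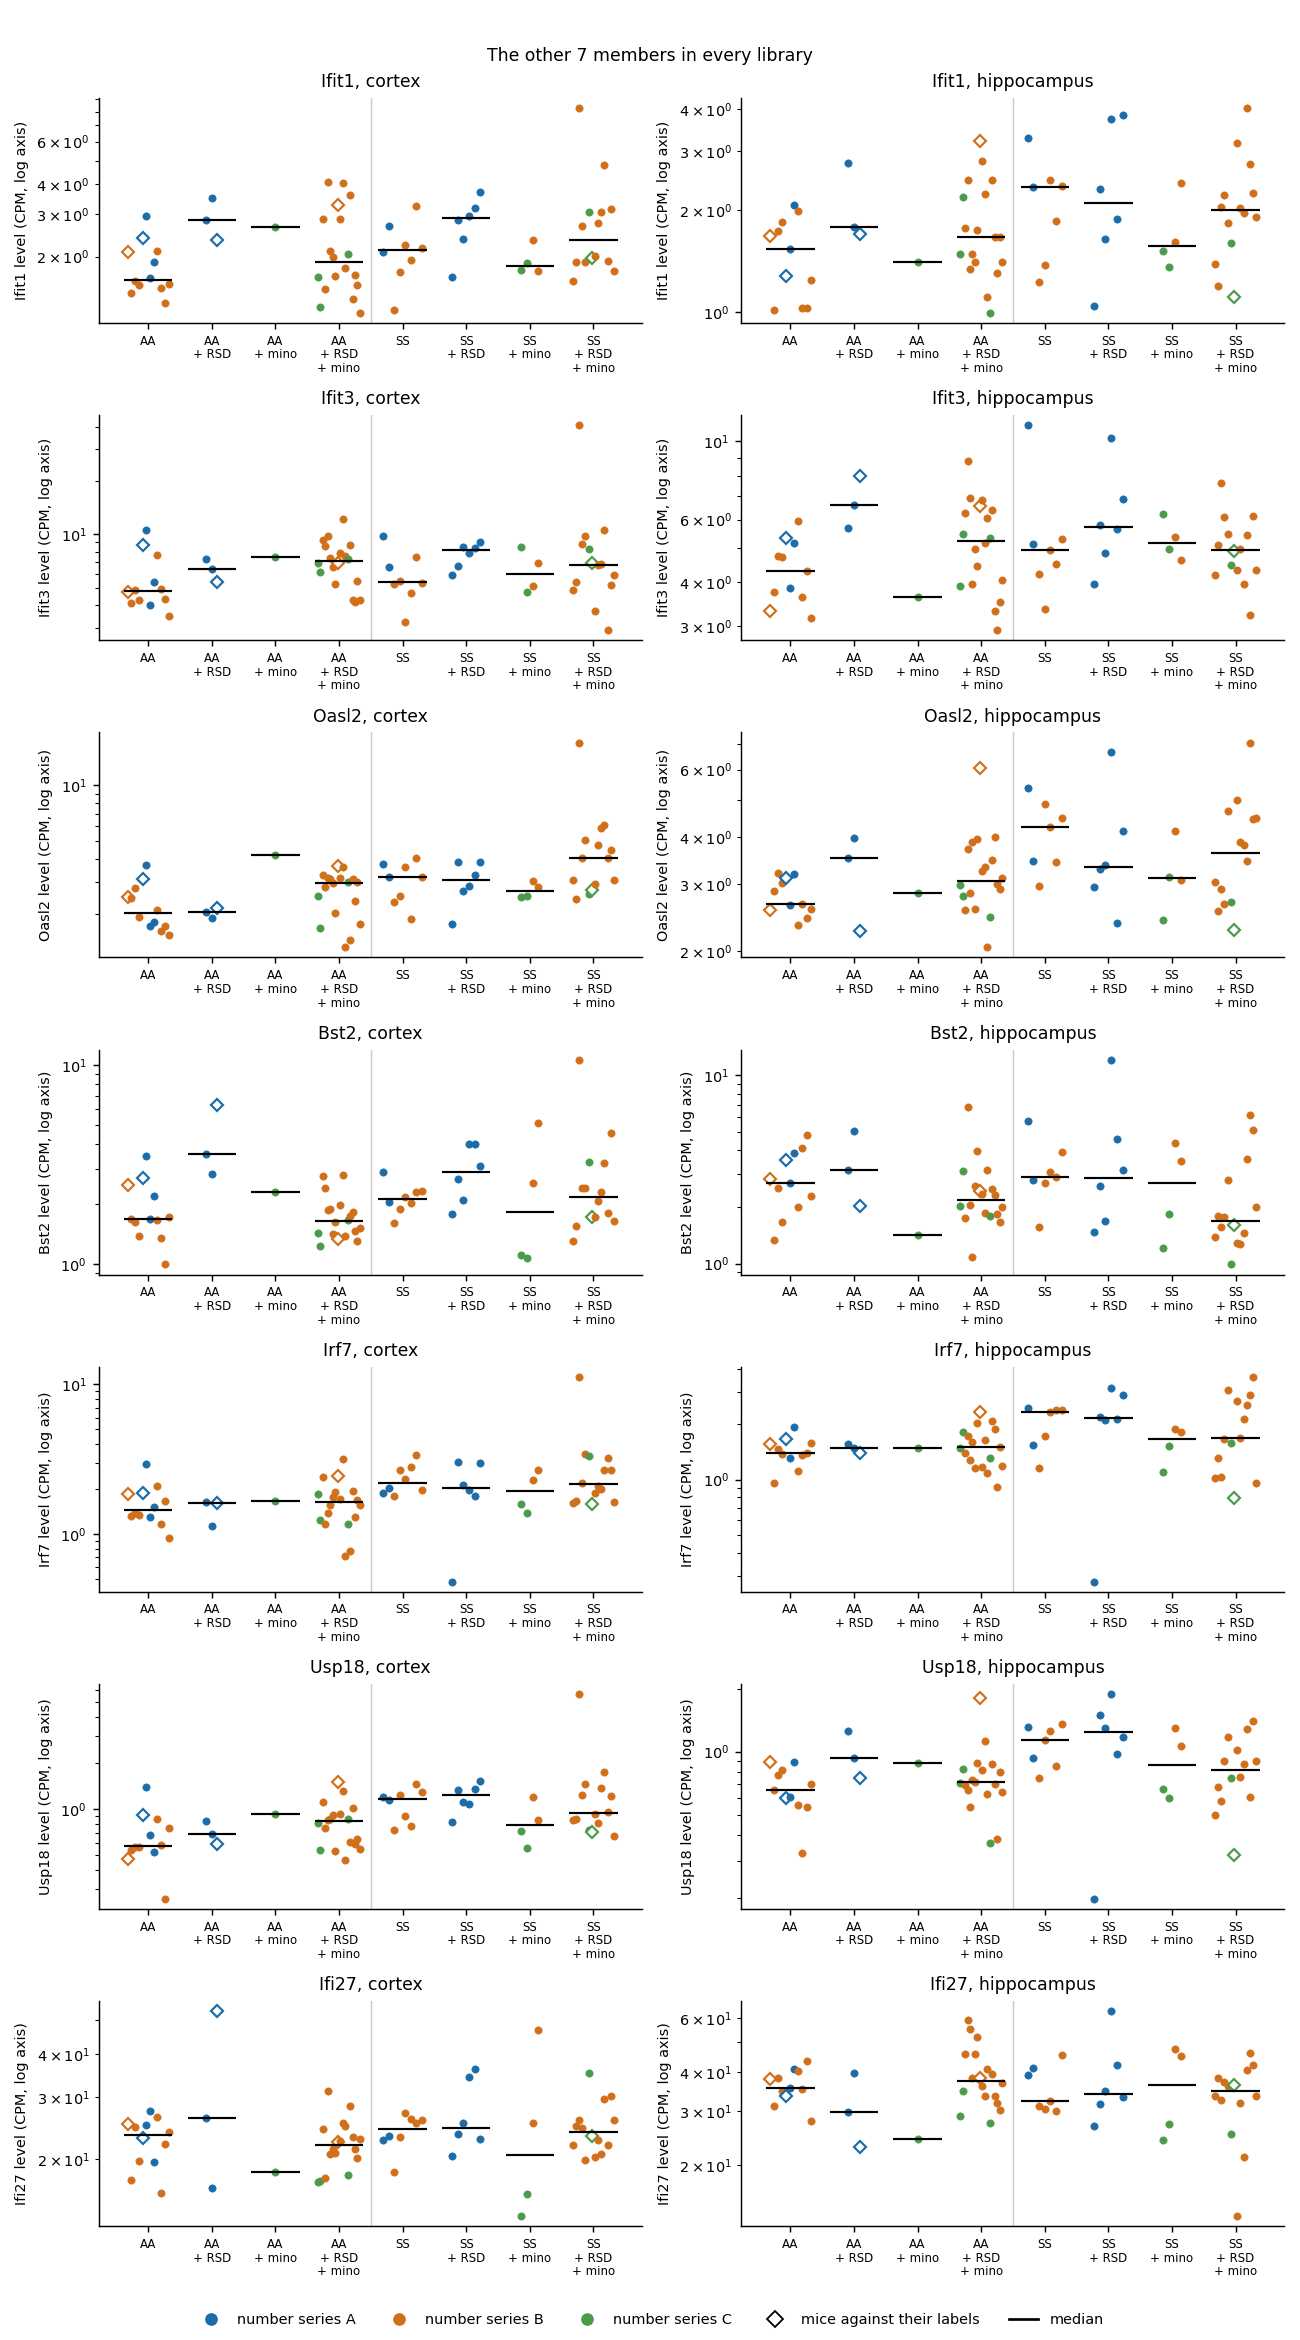
Levels of Irf7, Usp18, Ifit1, Ifit3, Oasl2, Bst2 and Ifi27 in each library, in CPM on log axes, by group and tissue, with mice coloured by number series and black lines at the medians. The groups overlap, and mouse 5801 (SS + RSD + minocycline) is the highest point in the cortex for 6 of the 7 genes, Ifi27 being the exception.

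RSD alone was compared with no RSD within each genotype. In SS mice, 0 of 9 members were called in either tissue by edgeR or by DESeq2, and 1 (Rsad2, cortex) and 0 had an unadjusted p under 0.05, against 2.57% of all genes called in the cortex and 3.11% in the hippocampus. These shares were unstable. The 511 genes called in the cortex became 0 without mouse 5391, 9615, 9616 or 9621, 2 without 5354 and 636 without 5400, and the 643 in the hippocampus became 903 without 5400 and 0 without any one of the other 5. With the number series as a term 0 genes were called in either tissue, and DESeq2 called 2097 and 1509. Rsad2 in the cortex had a median of 10.9 CPM in SS (range 6.28 to 14.8) and 14.4 (12.4 to 27.4) in SS + RSD, with a log2 fold change of 0.85 ± 0.31 (95% interval 0.23 to 1.47, adjusted p = 0.0893). Mice 5391 and 9621, at 23.8 and 27.4 CPM, were above the others, while 12.4, 12.9 and 13.5 CPM lay within the range of SS controls and 15.3 just above it. In a model of only these groups the difference of 0.81 was called (adjusted p = 0.0232), as were 3348 genes. All SS + RSD mice are of series A, and the 2 SS controls of that series had 12.8 ± 2.09 CPM against 17.5 ± 6.4 in SS + RSD. The difference was 0.47 in series A only and 0.49 with the series as a term (adjusted p = 1 in both). In the hippocampus the difference was 0.28 ± 0.32 (interval -0.36 to 0.92). Isg15 differed by 0.61 ± 0.50 in the cortex and 0.35 ± 0.55 in the hippocampus, and the latter turned to -0.33 in mice of series A alone (adjusted p = 0.808). The erythroid sum had a median of 123 CPM in SS and 149 in SS + RSD in the cortex. Its part in the Rsad2 values was not tested.

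In AA mice, Bst2 in the cortex was the 1 member called after RSD, against 0.853% of all genes. It had 2.82, 3.55 and 6.30 CPM in the 3 AA + RSD mice and 0.997 to 3.49 (median 1.68) in 12 AA mice. The log2 fold change was 1.16 ± 0.28 (adjusted p = 0.0304). The highest value belongs to mouse 9674, whose cortex library had 5200 CPM of 6 choroid plexus markers, against 24.8 and 11.7 CPM in mice 9643 and 9646, and 53 CPM of Ifi27. Without this mouse the Bst2 difference was 0.73 ± 0.32 (adjusted p = 0.822), and within series A it was 0.77 ± 0.33 (adjusted p = 0.996). In the hippocampus 0 of 9 members were called by either tool, with 1 at an unadjusted p under 0.05, against 1.19% of all genes. Rsad2 differed by -0.47 ± 0.57 and -0.43 ± 0.48 in the cortex and hippocampus of AA mice.

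The effect of RSD was not shown to differ between genotypes for any member. In the interaction of genotype and RSD, 0 of 9 members were called in either tissue by edgeR or DESeq2 and 0 had an unadjusted p under 0.05, against 0.236% and 0.0474% of all genes called. The largest estimate was that of Rsad2 in the cortex, 1.23 ± 0.64 on the log2 scale, and the smallest adjusted p of the 18 tests was 0.998.

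Minocycline under RSD was compared with RSD alone. No number series holds both groups, so treatment and series cannot be told apart from these groups alone. A fit with the series as a term takes the series difference from other groups. In SS mice, 0 of 9 members were called in the cortex, with 1 at an unadjusted p under 0.05 and 1 called by DESeq2, against 8.85% of all genes. In the hippocampus 0 were called by either tool, with 1 (Bst2) at an unadjusted p under 0.05, against 5.96%. Rsad2 in the cortex was 10.7 ± 4.67 CPM with minocycline and 17.5 ± 6.40 without, a log2 fold change of -0.82 ± 0.27 (95% interval -1.36 to -0.28, adjusted p = 0.0531). No mouse given minocycline exceeded the highest SS + RSD mouse, 7 of 14 were below every SS + RSD mouse, and the other 7 overlapped. The difference was just past the threshold with DESeq2 (-0.79, adjusted p = 0.0378), without the 4 doubted mice (-0.73, adjusted p = 0.0431) and without mouse 5801 (-0.84, adjusted p = 0.0367). It did not pass the threshold under the other alternatives run, the number series as a term among them. The median erythroid sum was 86.8 CPM with minocycline and 149 without. Its part in these values was not tested. In the hippocampus the Rsad2 difference was -0.55 ± 0.27 (adjusted p = 0.197), and all 9 members had negative estimates there (median -0.36, against -0.03 over all genes).

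In AA mice, Bst2 in the cortex fell by 1.31 on the log2 scale (SE 0.26, adjusted p = 0.00295) between RSD alone and RSD with minocycline, from 4.22 ± 1.84 CPM to 1.76 ± 0.474, and all 18 treated mice were below the 3 mice given RSD alone. It was the 1 member called, against 3.6% of all genes. Without mouse 9674 the difference was -0.89 ± 0.31 (adjusted p = 0.296), and with the number series as a term it was -0.55 ± 0.36 (adjusted p = 0.693). In the hippocampus 0 members were called by edgeR or DESeq2 and 0 had an unadjusted p under 0.05, against 2.67% of all genes.

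Minocycline without RSD was given to 4 SS mice. Isg15 in the cortex was 1.29 and 2.02 CPM in mice 7108 and 7121 of series C and 9.29 and 19.4 CPM in mice 9888 and 9889 of series B, against 1.86 to 7.77 CPM in 8 SS controls. In the hippocampus the same mice had 1.18, 1.77, 8.73 and 16.4 CPM. The mice of series C thus lay near or below the lowest control and those of series B near or above the highest, in both tissues. Rsad2 in the cortex was 11.1 and 11.9 CPM in the mice of series C and 14.5 and 15.7 in those of series B, against 6.28 to 14.8 in controls. In the hippocampus it was 8.9 and 10.2 CPM in series C and 15.7 and 17.6 in series B, where both mice of series B were above the highest control (14.8). Their erythroid sums ranged from 73.2 to 216 CPM in the cortex. Of the 9 members, 0 were called in either tissue by edgeR or DESeq2 and 0 had an unadjusted p under 0.05, and the share of all genes called was 0% in both. In mice of series B only, Isg15 and Ifi27 were called in the cortex, where 27.1% of all genes were called too. RSD with minocycline compared with untreated controls called 0 members in either genotype or tissue by either tool. The share of all genes called was 0% in SS and 0.0319% in AA in the cortex and 0% in both genotypes in the hippocampus, and 1 member in the SS cortex (Oasl2, 0.67 ± 0.28) and 1 in the AA hippocampus had an unadjusted p under 0.05.

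Other members were called between number series. Among control mice, with genotype as a term, Ifit3 (0.67 ± 0.18, adjusted p = 0.00641), Bst2 (0.58 ± 0.16, adjusted p = 0.00843) and Ifit1 (0.43 ± 0.17, adjusted p = 0.0464) were higher in series A than in series B in the cortex, 3 members against 40.3% of all genes called. In the hippocampus Ifit3 was called (0.59 ± 0.18, adjusted p = 0.0159), 1 member against 40.8%. The estimates of Rsad2 were -0.06 ± 0.43 and -0.15 ± 0.34 and those of Isg15 0.44 ± 0.39 and 0.63 ± 0.37. The share of members called was near or under that of all genes, so the series difference is not particular to them. Since all mice given RSD alone are of series A, the values of Ifit1, Ifit3 and Bst2 in RSD groups stand beside this difference. Cortex controls of the series also differed in the share of reads mapped outside annotated genes. It was 3.789 to 5.67% in series A, 8.631 to 11.04% in SS mice of series B and 4.679 to 10.28% in AA mice of series B. The part of this in the series values was not tested.

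Between tissues of control mice, Ifi27 was lower in the cortex than in the hippocampus in AA (22.5 ± 3.62 and 36.3 ± 4.58 CPM, log2 fold change -0.66 ± 0.09, adjusted p = 2.14e-07) and in SS (24 ± 2.79 and 35.7 ± 6.24 CPM, -0.55 ± 0.12, adjusted p = 0.00018). Bst2 was lower in the cortex of AA mice (-0.55 ± 0.21, adjusted p = 0.0343), and the value in SS was -0.56 ± 0.26 (adjusted p = 0.0998). These 2 and 1 members compare with 36.6% and 30.6% of all genes. This test treated both libraries of a mouse as independent. With the mouse as a block, which pairs the tissues of each animal, 4 members were called in AA and 2 in SS, against 50.2% and 44.5% of all genes in that model, with Oasl2 lower in the cortex in both (-0.38 and -0.37) and Ifit3 higher in AA (0.26). Ifi27 was higher in the hippocampus in 59 of 63 mice, Bst2 in 45 and Oasl2 in 43, and Ifit3 was higher in the cortex in 50. Rsad2 (37 of 63 higher in the cortex) and Usp18 (32 of 63) were close to even.

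The level of a mouse relative to its group was similar in both tissues for a few members. Over 63 mice, after subtraction of group means from log2 CPM, the r between cortex and hippocampus was 0.850 for Isg15, 0.826 for Rsad2 and 0.661 for Ifit3, against a median of 0.350 over 21923 genes. It was 0.453 for Ifit1, 0.420 for Irf7, 0.354 for Ifi27, 0.311 for Usp18, 0.302 for Bst2 and 0.253 for Oasl2. In 57 mice without those that went against their labels and mouse 5801, the values were 0.813 for Isg15, 0.611 for Rsad2 and 0.683 for Ifit3. Tissues of a mouse share its blood, dissection and number series.

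**Figure D5:**
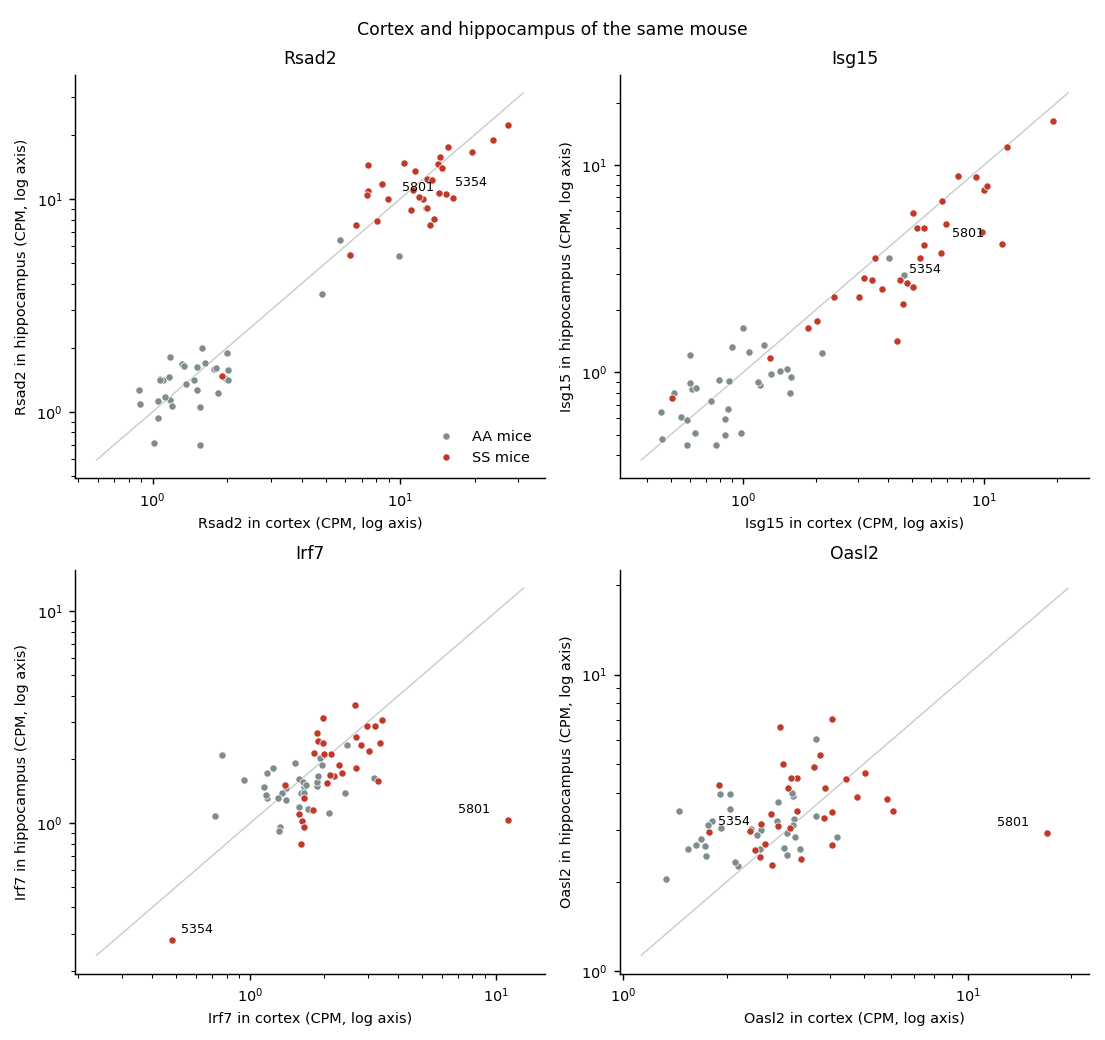
Level in the cortex against level in the hippocampus of the same mouse for Isg15, Rsad2 and other members, in CPM on log axes. There is 1 point per mouse, and a line marks equal levels. Isg15 and Rsad2 follow the line over the widest range.

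Mouse 5801 (SS + RSD + minocycline) stood apart in the cortex. It had 40.8 CPM of Ifit3, 17 of Oasl2, 11.2 of Irf7, 10.6 of Bst2, 8.26 of Ifit1 and 5.64 of Usp18, each above the other 13 mice of its group, whose medians were 6.76, 4.05, 2.11, 2.07, 2.01 and 0.928. Across the 9 members the median ratio to the other mice's median was 4.19. It was 1.83 for Rsad2 (16.3 CPM), 3.15 for Isg15 (11.9) and 1.11 for Ifi27 (25.8), which were inside the range of the group. Of 70 other interferon-stimulated genes, 31 (44.3%) were above every other mouse of the group, led by Ifi44, at 8.93 CPM against a median of 0.935, compared with 10.8% of 18262 genes overall. In the hippocampus of the same mouse 1 of 9 members, Ifit3, was above the others (7.63 CPM), and Irf7 (1.03) and Usp18 (0.580) were below the group's medians. This cortex library had sums of 259 CPM of cortex markers and 306 of hippocampus markers and the highest meningeal fibroblast sum of the SS cortex (86.8 CPM). The part of tissue composition was not tested.

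Mouse 5354 (SS + RSD) was low in Irf7 and Usp18. Its Irf7 level was 0.482 CPM in the cortex and 0.279 in the hippocampus, against group medians of 2.05 and 2.16, and its Usp18 level in the hippocampus was 0.199 CPM, against 1.24. In the same libraries Rsad2 was 15.3 and 10.6 CPM and Isg15 4.48 and 2.79, so that Irf7 and Rsad2 were not low together. Isg15 of this mouse was the lowest of the 6 SS + RSD mice in both tissues.

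The members varied together within groups. After subtraction of group means, the 36 pairs had r from 0.146 to 0.827 (median 0.589) over 65 cortex libraries and from 0.131 to 0.784 (median 0.498) over 63 hippocampus libraries. The pair of Isg15 and Rsad2 had 0.766 and 0.727, and without mice 5844, 5853, 7078 and 9631 it had 0.637 and 0.627. Pairs among Ifit1, Ifit3, Irf7, Oasl2 and Usp18 had a median of 0.685 in the cortex (0.560 without mouse 5801) and 0.565 in the hippocampus. The genes most like the mean of the members, after subtraction of group means, were in the cortex Ifitm3, an antiviral membrane protein (r = 0.854), Bpgm, an enzyme of red cell metabolism (0.810), the guanylate-binding proteins Gbp3 (0.809) and Gbp2 (0.791), and the galectin Lgals9 (0.785), over 65 libraries with a median r of -0.0555 across 22926 genes. In the hippocampus they were the immunoproteasome subunit Psmb9 (0.829), the GTPase Tgtp2 (0.781), Ifitm3 (0.775), Gbp2 (0.773) and the class I molecule H2-K1 (0.765) over 63 libraries.

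The pathway upstream of the members was read from a list of 39 genes. The interferons themselves were at or near 0. No library had more than 4 reads of Ifnb1, Ifna1, Ifna2, Ifna4, Ifng, Ifne, Ifnk, Ifnl2 or Ifnl3, so a difference in them was not detectable at this depth. The receptors were present, with group means of 40.3 to 55.2 CPM for Ifnar1 and 9.55 to 10.7 for Ifnar2 in the cortex, and none of Ifnar1, Ifnar2, Ifngr1 and Ifngr2 was called between genotypes. Of 30 genes tested, 1 was called in a genotype comparison, the nucleic acid sensor Zbp1 in the cortex with RSD and minocycline (1.75 ± 0.40, adjusted p = 0.0128). In the median over the list the genotype difference in controls was 0.11 in the cortex and 0.07 in the hippocampus. Under RSD, minocycline in SS cortex was accompanied by higher Irf9 (0.57 ± 0.15, adjusted p = 0.0213) and Stat2 (0.44 ± 0.14, adjusted p = 0.0393), which belong to the same complex, and lower Jak1 (-0.26 ± 0.08, adjusted p = 0.0336), 2 higher and 2 lower of 30. Tbk1, a kinase that activates Irf3, was the 1 gene of the list called in the hippocampus (0.18 ± 0.06). In these comparisons, fitted without the number series as a term, treatment and series cannot be told apart.

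Of 83 other interferon-stimulated genes, 80 were tested between genotypes in the cortex and 78 in the hippocampus. In controls 2 were called in the cortex (Isg20 and Ube2l6) and 3 in the hippocampus (Sp100, a nuclear body protein, in addition, 0.58 ± 0.13, adjusted p = 0.0203), all higher in SS. After RSD, Isg20 and Ube2l6 were the 2 called in each tissue. With RSD and minocycline 6 were called higher in the cortex, among them Tap1, the peptide transporter of antigen presentation (0.49 ± 0.11, adjusted p = 0.0117), and 4 in the hippocampus, among them Gbp4 (0.69 ± 0.18, adjusted p = 0.0153). The median over the list in controls was 0.25 in the cortex and 0.26 in the hippocampus, with 66 of 80 and 66 of 78 estimates positive, beside 49.8% and 52.8% of all genes. Uba7, the enzyme that activates Isg15 for conjugation, was the 1 gene of the list called for RSD in SS, lower in the cortex (-0.82 ± 0.21, adjusted p = 0.0425) and hippocampus (-0.89 ± 0.24, adjusted p = 0.044), against 2.57% and 3.11% of all genes, and with the number series as a term 0 genes were called. Uba7 was higher with minocycline under RSD in the SS cortex (0.73 ± 0.20, adjusted p = 0.0203), where Ube2l6 was lower (-0.64 ± 0.20, adjusted p = 0.0445) and Samhd1, a nucleotide hydrolase, higher (0.46 ± 0.13, adjusted p = 0.0288). In AA mice under RSD, minocycline went with lower Tgtp1 in the cortex (-1.69 ± 0.45, adjusted p = 0.0329), against 3.6% of all genes called. In the hippocampus it went with lower Ifit2 (-0.54 ± 0.14, adjusted p = 0.0342) and Oas1c (-0.94 ± 0.22, adjusted p = 0.0155) and higher Ifi203 (1.22 ± 0.34, adjusted p = 0.0433), against 2.67%. The AA + RSD group holds mouse 9674, whose libraries looked exchanged, and no values without it are given for these genes. In the minocycline comparisons under RSD of both genotypes, treatment and number series cannot be told apart.

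Both lists held the most called genes between number series and between tissues, where many genes of any kind were called, and their shares were near or under those of all genes. Between series A and B of control mice, 6 pathway genes were higher and 6 lower of 29 in the cortex, and 6 and 4 of 30 in the hippocampus, against 40.3% and 40.8% of all genes called. Of the other interferon-stimulated genes, 22 were higher and 6 lower of 72 in the cortex, among them the class I subunit B2m (0.64 ± 0.11, adjusted p = 0.000278) and Gbp2 (0.86 ± 0.15, adjusted p = 0.000385), and 20 and 6 of 76 in the hippocampus, among them the immunoproteasome subunits Psmb8 (0.84 ± 0.17) and Psmb10 (0.49 ± 0.09). The median over these genes was 0.19 and 0.22, against -0.02 and -0.01 over all genes. Between cortex and hippocampus of AA controls, 13 were higher and 7 lower of 73, against 36.6% of all genes called, the DNA-binding protein Mndal being lower in the cortex (-2.64 ± 0.22, adjusted p = 7.35e-13) and the ligase Herc6 higher (1.86 ± 0.22, adjusted p = 7.99e-09). In SS controls, 9 were higher and 5 lower, against 30.6%, again with Mndal (-1.94 ± 0.26) and Herc6 (1.92 ± 0.28). Of the pathway genes, Socs3, an inhibitor of cytokine signalling, was higher in the cortex in both genotypes (1.13 ± 0.14 and 1.15 ± 0.17).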

How the data were processed

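For each tissue the authors deposited a table of raw read counts per GENCODE gene, made from stranded polyadenylated RNA libraries with STAR on GRCm39. The strand setting of the counting is not given in the sources used here. The counts were tested with edgeR 4.0.16 in R 4.3.3, using filterByExpr by group (minimum count 10, minimum total 15), TMM scaling, and the quasi-likelihood test (glmQLFit, glmQLFTest), and genes were called where the adjusted p (Benjamini-Hochberg) was under 0.05. Comparisons within a genotype used the groups of that genotype, and comparisons between genotypes used all groups, 12 comparisons per tissue and 2 between tissues. Log2 CPM used a prior count of 2. The members, the lists of 39 and 83 genes and the tests were chosen with earlier results of these data known. Named are all 9 members, the interferons and receptors, list genes called among the 3 of smallest adjusted p, and the 5 most correlated genes per tissue. Alternatives were the Wald test of DESeq2 1.42.0, RLE size factors, no filter, the number series as a term, a model restricted to the groups compared, the mouse as a block between tissues, and leaving out doubted mice or single replicates. Leaving out mouse 5801 and using mice of series A or B only were chosen after seeing the data. In each tissue the libraries of mice 9887 (labelled SS + minocycline) and 9877 (labelled AA + RSD + minocycline) held identical counts and were left out. 1 sample with contradictory tissue labels and 3 table columns without a matching sample were not used. The edgeR and DESeq2 tests were tested on simulated data. The simulation gave every gene the same dispersion and held no number series or mislabelled mice, so it does not cover these features of the data. Genes of the pathway and erythroid lists that are not reported here were left out of their counts and sums. Gene models are GENCODE vM39, and exonic lengths are unions of all exons.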

Additional observations from a re-analysis of the deposited data

Results flagged for a closer look

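Of 54 sets of one member in one group and tissue with 4 to 10 mice, 7 held a mouse whose gap to the next, as a share of the range on the log2 CPM scale, exceeded Dixon's limit, where chance flags about 1 in 20. They fall on 3 mice. Mouse 5785 was the lowest SS control for Isg15 (gap share 0.543, log2 CPM 0.92 against 2.03) and Ifi27 (0.582, 4.18 against 4.50) in the cortex and for Rsad2 in the hippocampus (0.735, 2.40 against 3.51). Mouse 5354 was the lowest SS + RSD mouse for Irf7 in the cortex (0.721, -0.85 against 0.98) and hippocampus (0.823, -1.58 against 1.14) and for Usp18 in the hippocampus (0.679, -1.98 against 0.04). Mouse 5349 was the highest SS control for Ifit3 in the hippocampus (0.614, 3.51 against 2.41). Its hippocampus library had 2400 CPM of choroid plexus markers, the highest of the SS controls, and its erythroid sum of 153 CPM was the highest of them too. The part of either in the Ifit3 value was not tested.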

How the results depend on the processing

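Of 270 counts of members called under an alternative, 241 stayed within 1.5 times the reported count and 29 did not. Of 271 values of single members, 246 kept direction and side of the threshold, 17 fell below it, 4 passed it and 4 changed sign. The cause of a changed call was not tested. In the model of only the groups compared, 1 member was called for RSD in SS cortex, 0 for RSD in AA cortex and 2 for genotype after RSD in the cortex. DESeq2 called 1 for minocycline under RSD in SS cortex, 2 in AA cortex and 2 for genotype after RSD in the cortex. Without mice 5844, 5853, 7078 and 9631 the counts were 1 (minocycline under RSD, SS cortex), 2 (genotype after RSD, cortex) and 2 (series, hippocampus), and without mouse 5801 the first was 1 as well. Without mouse 9674, and with it 2 AA + RSD mice left, 0 members were called for RSD and for minocycline under RSD in AA cortex and for genotype after RSD in the cortex. Leaving out each AA + RSD mouse in turn gave 0 to 2, 0 to 2 and 0 to 1 members. With the number series as a term, 0 were called for RSD and for minocycline under RSD in AA cortex. In series A only, 0 were called for RSD in AA cortex and 2 for genotype after RSD in each tissue, and in series B only 2 for minocycline alone in SS cortex (Isg15 and Ifi27, against 27.1% of all genes) and 1 for genotype in hippocampus controls. Without the filter on low counts, 0 were called for RSD in AA cortex and 1 between tissues in AA. With the mouse as a replicate block, the pairing that the labels give through the mouse number, 4 and 2 members were called between tissues in AA and SS, against 50.2% and 44.5% of all genes. The estimates that changed sign are those of Isg15. With the series as a term, minocycline under RSD in SS gave 0.26 in the cortex (adjusted p = 1) and 0.80 in the hippocampus (adjusted p = 0.637), and RSD in SS hippocampus gave -0.35 (adjusted p = 0.948), or -0.33 in series A only (adjusted p = 0.808). Over 9 alternatives the genotype difference of Rsad2 in controls ranged from 2.04 to 2.98 in the cortex and from 2.66 to 3.32 in the hippocampus, and it was called in each. Depth limits Usp18 and Irf7 most, with as few as 5 and 7 reads in a library.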

Other observations

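The single AA + minocycline mouse entered the models and no comparison. Besides Rsad2, its cortex library had 4.18 CPM of Oasl2, above the highest of the 12 AA controls (3.68), and 1.52 of Isg15, 2.66 of Ifit1, 7.42 of Ifit3, 1.66 of Irf7, 2.30 of Bst2, 0.922 of Usp18 and 18.3 of Ifi27. In its hippocampus library Oasl2 was 2.84 and Bst2 1.41 CPM. This cortex library had the highest meningeal fibroblast marker sum of the AA cortex libraries (74.9 CPM, against a median of 26).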
